A study of Mus musculus with 6 samples.

Results

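Immunoglobulin variable (V) segments are the gene pieces that B cells join to D and J segments to build the part of an antibody that binds antigen. Their transcripts were counted here in 6 popliteal lymph node libraries of the mouse. All rows that GENCODE M21 annotates as immunoglobulin V genes were taken, which gave 113 heavy-chain, 102 kappa light-chain and 3 lambda light-chain segments of the 22274 genes in the deposited table.

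The study educated popliteal nodes, which drain the foot, by footpad injection of extracellular vesicles (EVs), given every other day over 10 days. The EVs were shed into medium by UM-UC-3 cells, a line from a human bladder cancer, or by SV-HUC-1 cells, SV40-immortalised urothelium from a human ureter, with 3 libraries from each source. The protocol text also names lipofectamine 3000, a transfection reagent. TruSeq libraries (Illumina) were built from 1 ug of total RNA. The design text states independent experiments, but the labels used here give no strain, sex or age, no untreated node, and do not say whether nodes were pooled. The table numbers its libraries LN-1 to LN-6 and these numbers are not tied to an EV source, so no comparison between EV sources was made. EV source, mouse and library cannot be told apart in any difference between nodes described here, and values are given per node, with no test of a treatment.

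Each developing B cell joins 1 V segment per chain, so in a population of many B cells the segments appear side by side in proportion to the cells that use them and to the RNA that those cells make. Heavy-chain V segments join D and J segments, whereas kappa and lambda segments join J segments directly. Antigen-driven expansion of a clone raises the RNA of its own heavy and light segments, and plasma cells hold far more immunoglobulin RNA per cell than resting B cells. In RNA from a whole node, fewer cells using a segment and less RNA per cell cannot be told apart.

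Each V segment ends in a framework that carries a conserved cysteine just before the hypervariable loop that joining creates. The last 75 bases of the GENCODE M21 transcripts (GRCm38) are shown for the segments on which the results turn, on the coding strand, with the codon of that cysteine in capitals. The codon was located as the final 3 bases of a match, on the coding strand, to TATTATTGT, allowing T or C at bases 3, 6 and 9 and A, T or G at base 5. This pattern was present in 109 of 113 heavy, 99 of 102 kappa and 2 of 3 lambda segments.

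The heavy segments shown are the one with the highest median share (Ighv4-1) and segments that were high or low in a single node. All 4 lie on the minus strand of chromosome 12, Ighv4-1 at chr12:113948282-113948796, Ighv14-3 at chr12:114059845-114060321, Ighv2-9 at chr12:113879096-113879541 and Ighv5-12 at chr12:113702124-113702578.
Ighv4-1: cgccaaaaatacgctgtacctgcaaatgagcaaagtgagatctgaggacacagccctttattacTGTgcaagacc
Ighv14-3: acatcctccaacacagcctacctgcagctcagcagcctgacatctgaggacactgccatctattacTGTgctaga
Ighv2-9: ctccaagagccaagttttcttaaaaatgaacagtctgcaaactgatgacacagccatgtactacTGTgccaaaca
Ighv5-12: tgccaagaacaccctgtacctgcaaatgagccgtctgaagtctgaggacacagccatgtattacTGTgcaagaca

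The kappa segments shown are leading segments and their close relatives, which can exchange reads, and Igkv1-99, which was high in 1 node. Igkv1-135 (chr6:67609713-67610508), Igkv1-133 (chr6:67724902-67725661), Igkv1-117 (chr6:68121046-68121827), Igkv1-110 (chr6:68270485-68271267) and Igkv1-99 (chr6:68541644-68542422) lie on the plus strand, and Igkv10-96 (chr6:68631963-68632442) on the minus strand.
Igkv1-135: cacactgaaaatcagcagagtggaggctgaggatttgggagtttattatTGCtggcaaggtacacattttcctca
Igkv1-133: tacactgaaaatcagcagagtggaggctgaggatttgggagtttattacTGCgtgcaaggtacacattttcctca
Igkv1-117: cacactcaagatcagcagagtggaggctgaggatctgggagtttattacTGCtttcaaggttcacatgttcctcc
Igkv1-110: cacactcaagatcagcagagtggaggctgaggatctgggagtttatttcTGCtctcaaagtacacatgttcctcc
Igkv1-99: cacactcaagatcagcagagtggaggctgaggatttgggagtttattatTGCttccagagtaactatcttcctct
Igkv10-96: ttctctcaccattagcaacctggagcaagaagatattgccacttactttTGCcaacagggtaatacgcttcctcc

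The lambda segments Iglv1 (chr16:19085017-19085500) and Iglv2 (chr16:19260401-19260859), both on the minus strand, are shown because the lambda share differed most in 1 node. Their transcripts were 96.98% identical.
Iglv1: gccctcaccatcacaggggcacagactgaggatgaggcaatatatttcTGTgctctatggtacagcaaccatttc
Iglv2: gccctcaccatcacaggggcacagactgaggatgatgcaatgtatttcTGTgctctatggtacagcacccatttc

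The libraries held 13039899 to 18093707 counts, of which 6454 to 13623 fell on V segments. Scaled to the library total as CPM, V segments took 491, 744, 506, 753, 658 and 495 CPM in LN-1 to LN-6. B cell markers summed to 5288 to 7242 CPM, with all 8 listed genes detected. A lymph node also holds many T cells, yet the 8 T cell markers summed to 213 to 317 CPM, and Cd3e, a subunit of the T cell receptor complex, had 40 to 77 counts. All 6 muscle, 6 adipocyte and 5 erythroid genes were detected. Their sums ranged from 3.87 to 899 CPM for muscle, highest in LN-2, from 54.9 to 1694 for adipocytes, highest in LN-6, and from 85.3 to 1056 for erythroid genes, highest in LN-4. A list of 5 stress and dissection genes was 350 in LN-2 and 94.3 to 112 elsewhere. Their part in the V results was not tested. No pair of nodes held the same counts within sampling noise, with chi-square per degree of freedom of 9.10 to 52.2 over 15 pairs.

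Of all V segments, 146 reached 10 counts in at least 1 node (61 heavy, 82 kappa, 3 lambda) and 77 did so in every node (21, 53 and 3). A further 52 had fewer counts, and 20 were at 0 in all nodes, 18 of them heavy and 2 kappa. Summed over the nodes, a count of 0 allows a share of up to 0.0281% of heavy and 0.00823% of kappa V counts. All 19 D and 14 J rows of the table were at 0 in every node, so only the V part of the joined gene was read. These limits and the intervals given below cover counting error only.

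Kappa segments made up most V counts in every node. Kappa took 68.5%, 66.3%, 72.8%, 55.6%, 69.8% and 70.0% of V counts in LN-1 to LN-6. Heavy segments took 21.2%, 20.8%, 16.4%, 18.9%, 18.4% and 20.7%. Lambda took 10.2%, 12.9%, 10.9%, 25.5%, 11.7% and 9.36%. LN-4 therefore stood apart in the split of light chains, and the heavy share varied less. Dividing counts by transcript length moved these shares little, to a median of 19.6% heavy, 69.6% kappa and 11.1% lambda.

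Iglv1, the most used lambda segment of the laboratory mouse, carried the lambda share of LN-4. It had 580, 747, 579, 2731, 934 and 512 counts in LN-1 to LN-6, or 38.8, 54.7, 40.9, 151, 58.2 and 39.3 CPM. LN-4 was above all other nodes. Iglv1 took 24.7% of light-chain V counts in LN-4 and 9.28% to 10.9% in the other nodes. Iglv2 had 54, 383, 104, 557, 159 and 39 counts, and was high in both LN-2 and LN-4. Iglv3 had 117, 178, 96, 190, 144 and 53 counts, and in CPM it was highest in LN-2, not in LN-4. Within lambda, Iglv1 took 77.2%, 57.1%, 74.3%, 78.5%, 75.5% and 84.8% of counts, lowest in LN-2, where Iglv2 took 29.3%.

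Lambda segments together took 13.0%, 16.3%, 13.0%, 31.5%, 14.4% and 11.8% of light-chain V counts. The 95% exact (Clopper-Pearson) interval in LN-4 was 30.6% to 32.3%, above the values of all other nodes. The lambda constant genes gave a second reading from other rows of the same libraries, at 26.0%, 21.9%, 21.5%, 30.03%, 21.5% and 21.6% of light-chain constant counts. LN-4 was again highest, but by less, and LN-1 came next although its lambda V share was among the lower ones. Per kilobase the constant genes gave 21.02% to 29.9%. Iglc1, the constant gene to which Iglv1 is commonly joined, had 28.2, 36.3, 34.9, 79.8, 36.6 and 38.0 CPM. It made up 17.6% of lambda constant counts in LN-4 and 9.23% to 12.9% in the other nodes. Iglc2 and Iglc3 are close copies, and reads could be divided between them. The erythroid genes were also highest in LN-4, and their part in its lambda share was not tested.

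**Figure D1:**
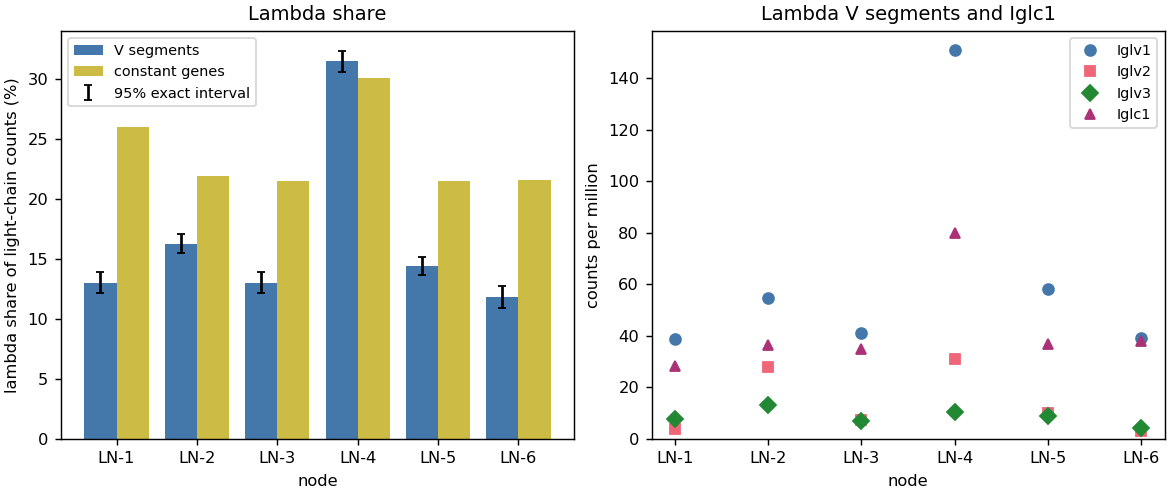
The left panel shows the lambda share of light-chain counts (%) per node from V segments, with 95% exact intervals, and from constant genes. The right panel shows CPM of 3 lambda V segments and Iglc1, in which Iglv1 reaches 151 in LN-4 and at most 58.2 in the other nodes.

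V and constant rows were not read with equal yield. Per kilobase, kappa V counts were 0.415 to 0.561 times Igkc, lambda V counts 0.221 to 0.589 times the sum of the lambda constant genes, and heavy V counts 0.110 to 0.170 times Ighm, the constant gene of IgM. All 3 ratios were highest in LN-4. A V sum and a constant sum are thus not interchangeable as measures of chain use.

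Ighv4-1, the only member of its family in the table, had the highest median share of heavy V counts. It had 209, 425, 128, 248, 173 and 75 counts, or 13.4%, 20.1%, 10.9%, 9.65%, 8.89% and 5.62% of heavy V counts in LN-1 to LN-6. It led the locus in every node except LN-6, where Ighv14-3 led with 9.90%, and its share in LN-2 was the highest of any heavy segment in any node. Its nearest relative was Ighv11-2 at 79.1% identity, so it is well separated from other V genes in sequence. LN-2 was also the node with the highest muscle, stress and plasma cell marker sums (plasma cells 831 CPM against 550 to 694 elsewhere), whose part in this share was not tested.

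The Ighv2 family, close to the D and J segments, supplied 4 of the 8 heavy segments with the highest medians. Ighv2-5 took 5.91%, 4.35%, 4.44%, 5.57%, 2.98% and 9.30% of heavy V counts, and Ighv2-2 took 2.76%, 4.20%, 2.81%, 5.22%, 3.91% and 9.82%. Both were highest in LN-6. The 2 were 96.6% identical and each was 97.7% identical to Ighv2-4, so their separate values are uncertain. Ighv2-9-1 took 1.80%, 3.92%, 2.65%, 3.85%, 5.86% and 1.87%, highest in LN-5. Ighv2-9 took 4.11%, 5.15%, 4.86%, 4.40%, 0.154% and 4.87%, so it was steady in 5 nodes and nearly missing in LN-5. Outside that family, Ighv7-3 took 1.93%, 7.18%, 5.03%, 5.57%, 2.93% and 5.77%, lowest in LN-1. The distal segments Ighv1-66, at 2.58% to 6.36%, and Ighv8-12, at 1.95% to 3.55%, completed the 8.

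Further heavy segments were named for a wide range, a lead or a high value in a single node. Ighv14-3 had 47, 45, 55, 72, 4 and 132 counts, lowest in LN-5 and highest in LN-6. Ighv5-4 had 113, 26.0, 31, 64.2, 2 and 23.95 estimated counts, highest in LN-1 at 7.22% of heavy V counts. Ighv5-12 had 7, 8, 2, 137, 0 and 9 counts. It thus reached 5.33% in LN-4 and at most 0.675% in any other node.

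Igkv1-135 had the highest median share of kappa V counts, although different segments led in different nodes. It had 307, 1034, 558, 446, 550 and 254 counts, or 6.11%, 15.3%, 10.7%, 5.89%, 7.46% and 5.62%. LN-2 was highest and LN-3 next, and it led kappa in both. Igkv10-96 took 6.14%, 4.83%, 6.32%, 9.99%, 5.60% and 8.03%, and led in LN-4 and LN-6. Per kilobase its median (6.53%) was slightly above that of Igkv1-135 (6.48%), so the order of these 2 rests on the unit. Igkv4-86 took 8.32%, 5.74%, 2.88%, 5.73%, 1.27% and 3.08%, leading LN-1 and lowest in LN-5.

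Igkv1-110 took 4.60%, 6.33%, 6.03%, 8.44%, 10.3% and 5.55%, and led LN-5. Its relative Igkv1-117 took 5.07%, 6.63%, 5.10%, 6.68%, 3.59% and 4.55%. The 2 were 97.5% identical, and their estimated counts, mostly not whole, summed to whole numbers in 6 of 6 nodes (tolerance 0.015), as counts do when reads are divided between a pair. Their sum took 9.67% to 15.1% of kappa V counts, with a median of 12.04%. The sum is therefore firmer than either part, and LN-5, which had the highest share for Igkv1-110 alone, was exceeded by LN-4 in the sum. The pairs Igkv10-96 with Igkv10-94, Igkv12-46 with Igkv12-44, Igkv5-45 with Igkv5-43, Igkv3-10 with Igkv3-5 and Ighv1-4 with Ighv1-7 also summed to whole numbers in every node. Igkv10-96 kept most of its pair: with Igkv10-94 it came to 5.55% to 11.3%.

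Some of the named kappa segments varied less in CPM, and others were high in a single node. Igkv16-104 took 3.26%, 1.90%, 2.23%, 2.09%, 2.20% and 2.30%, so as a share it stood apart in LN-1, and Igkv12-44 took 2.08% to 2.98%. The coefficient of variation (CV) in CPM beyond counting error was 9.23% for Igkv16-104, the lowest among the named segments, and 18.2% for Igkv12-44, although as shares Igkv12-44 was the narrower of the 2. Igkv19-93 took 2.73%, 2.00%, 8.34%, 3.00%, 3.91% and 2.99%, highest in LN-3.

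Igkv1-99 was at or below 9 counts in 5 nodes and at 176 in LN-6. Its counts were 6, 6, 9, 6, 1 and 176, which is 3.90% of kappa V counts in LN-6 and at most 0.173% in the others. Igkv9-120 was also high in LN-6, with 46, 37, 38, 52, 50 and 137 counts (3.03% against 0.549% to 0.915%). Igkv1-133 had 13, 12, 8, 20, 276 and 13 counts, which is 3.74% in LN-5 and 0.153% to 0.288% in the others. Its nearest relative was Igkv1-135, at 96.8% identity, and the counts of both were whole in every node. Adipocyte genes were highest in LN-6, and their part in these values was not tested.

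**Figure D2:**
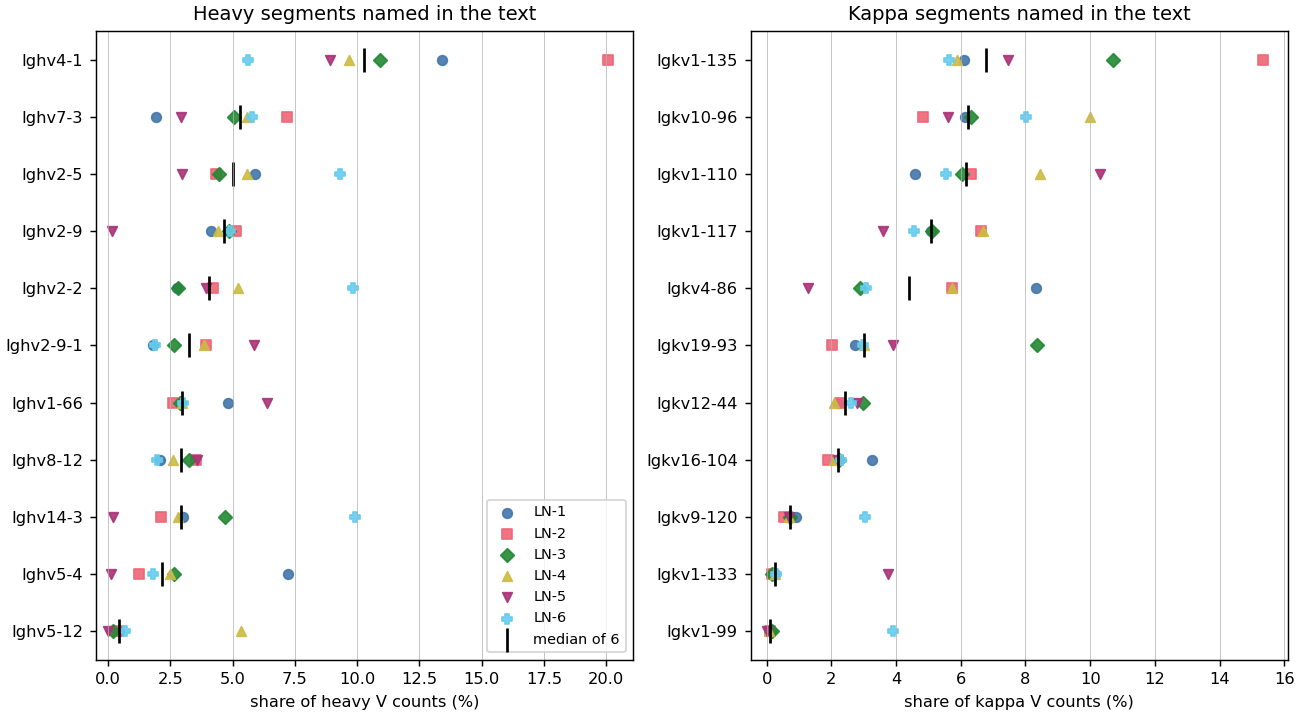
Each point is 1 node's share (%) of heavy V counts (left) or kappa V counts (right) for the segments named by rule, with the median of the 6 nodes as a tick. Ighv4-1 spreads from 5.62% to 20.1% and Igkv1-135 from 5.62% to 15.3%, while Ighv5-12, Igkv1-133 and Igkv1-99 are near 0 in all but 1 node.

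Grouped by family, Ighv1, the largest heavy family, took a median of 31.2% of heavy V counts over its 53 segments (23.5% to 45.9%), highest in LN-5. Ighv2 took 19.3% over 9 segments (16.4% to 29.2%), highest in LN-6. Ighv5 took 12.3%, 4.63%, 7.34%, 10.9%, 1.59% and 6.52%, lowest in LN-5. Ighv14 took 11.5% in LN-6 and 2.88% to 6.31% elsewhere. Relative to its number of segments Ighv1 was read less than evenly, since it holds 46.9% of the heavy segments, while the single Ighv4 segment holds 0.885% of them and took a median of 10.3%.

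Among kappa families, Igkv1 took a median of 23.0% over 10 segments (17.9% to 29.8%) and Igkv4 took 18.1% over 26 segments (13.4% to 21.1%). Igkv6 took 8.30%, Igkv10 7.19%, Igkv3 7.18%, Igkv8 6.30% and Igkv12 5.67% at the median. Igkv3 reached 10.2% in LN-3 and 6.57% to 7.62% in the other nodes. Igkv11, which Igkv11-125 represents, took 2.03% in LN-1 and 1.99% in LN-6 but 0.134% to 0.366% elsewhere; it was named after its values were seen.

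Ighv11-2 and Igkv14-126 are known to encode natural antibodies to phosphatidylcholine in B-1 cells of the mouse, and were named after their values were seen. Ighv11-2 took 0.834%, 1.18%, 2.30%, 1.32%, 2.57% and 3.22% of heavy V counts. Igkv14-126 took 0.478%, 0.712%, 0.480%, 0.528%, 0.624% and 1.31% of kappa V counts. Both were highest in LN-6 and lowest in LN-1. Ighv12-3 and Igkv4-91, another such pair, were instead both highest in LN-4. They took 0.662% of heavy and 1.28% of kappa V counts there, and 0.150% and 0.177% in LN-6. Ighv12-3 had at most 17 counts in a node. Ighv11-2 is 98.9% identical to Ighv11-1, which limits how surely its reads are placed. Its counts were whole in every node, and Ighv11-1 was at 0 in every node.

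Use was spread over many segments. The inverse Simpson number, which gives how many equally used segments would yield the same concentration, was 24.2, 15.7, 29.8, 28.9, 27.3 and 21.5 for heavy and 32.8, 21.8, 26.1, 26.6, 30.7 and 35.8 for kappa segments. LN-2 was lowest for both chains and was also the node in which Ighv4-1 and Igkv1-135 were highest. Its lowest place depended on those segments. Leaving out a segment tends to raise most the node in which it was highest, so this is a weak check. With Ighv4-1 left out of every node, LN-2 stood at 27.3 for heavy, still below every node but LN-6 (20.5). With Igkv1-135 left out of every node, LN-2 stood at 32.1 for kappa and LN-4 was lowest (25.95). In nodes led by another segment, that leader was kept. The 10 most used segments of a node held 44.4% to 59.5% of heavy and 42.6% to 51.1% of kappa V counts. Thinned to the smallest total (1172 heavy counts), 68.8 to 77.0 heavy segments were expected with at least 1 count, lowest in LN-5, and at 4516 kappa counts 89.0 to 92.3 kappa segments were.

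The ranking of segments was compared between nodes. Over the 113 heavy segments the Spearman correlation of shares had a median of 0.88 over 15 pairs of nodes (0.69 to 0.92), and over the 102 kappa segments also 0.88 (0.74 to 0.93). These are descriptions across segments, which are not independent, and the nodes share the annotation, the mappability of each segment and its rows at 0. Among segments with 10 counts in at least 1 node the medians were lower, at 0.76 for heavy (0.46 to 0.82) and 0.79 for kappa (0.56 to 0.89). The overlap of 2 nodes, the sum over segments of the smaller share, had a median of 71.5% for heavy (55.6% to 79.3%) and 77.5% for kappa (71.1% to 80.6%).

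LN-5 was the node least like the others in heavy segments. The 5 pairs with LN-5 had correlations of 0.69 to 0.76, and the 10 pairs without it 0.85 to 0.92, so the ranges did not overlap. Among detected heavy segments they were 0.46 to 0.59 with LN-5 and 0.75 to 0.82 without it. Overlaps were 55.6% to 64.2% with LN-5 and 65.2% to 79.3% without it. In kappa segments the lowest pair was LN-5 with LN-6, at 0.74, and at 0.56 among detected segments. LN-5 had 1945 heavy V counts, within the 1172 to 2569 of the other nodes, and the highest sum of B cell markers (7242 CPM).

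**Figure D3:**
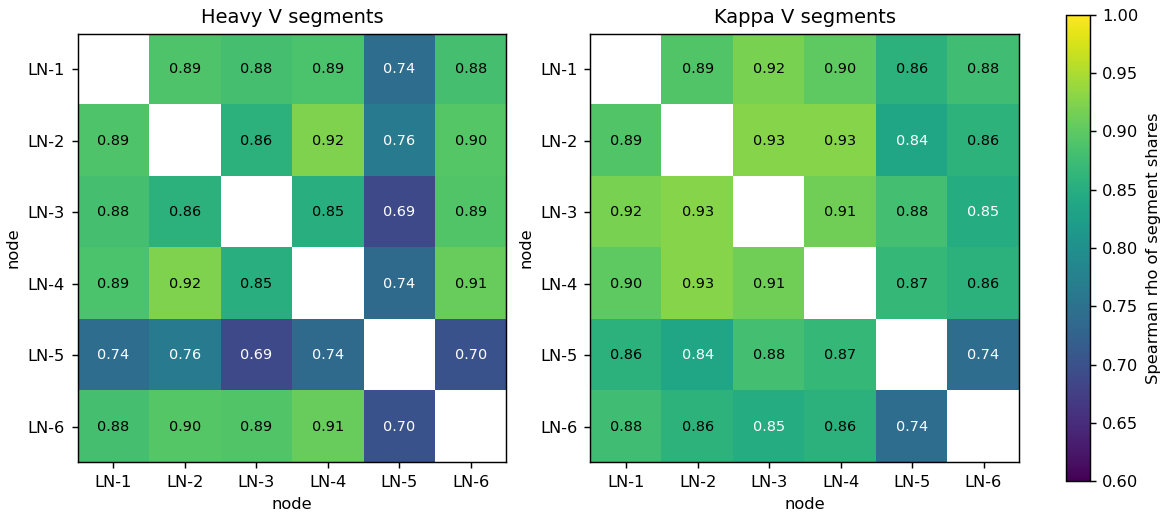
Each cell gives the Spearman correlation of segment shares between 2 nodes over 113 heavy (left) or 102 kappa (right) V segments. The row and column of LN-5 in the heavy panel hold 0.69 to 0.76, below the 0.85 to 0.92 of the other pairs.

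Several single segments were nearly missing from LN-5. By a rule chosen after the values were seen, a segment was taken as low in a node when it was at least 5-fold below every other node, each of which had at least 5 counts, and as high when at least 5-fold above every other with at least 10 counts. Heavy segments low in LN-5 were Ighv5-4 with 2 counts (23.95 to 113 elsewhere), Ighv5-6 with 1 (6.81 to 23.7), Ighv2-9 with 3 (57 to 113), Ighv14-3 with 4 (45 to 132) and Ighv9-3 with 1 (9 to 46). All 5 lie within 168 to 711 kb of the J segments, interleaved with segments that were read in LN-5, among them Ighv4-1 with 173 counts and Ighv2-9-1 with 114. No heavy segment was low by this rule in any other node. Ighv5-6 and Ighv9-3 were named after their values were seen, as were the segments in the next sentences outside the naming rule. Relatives of Ighv14-3 and Ighv2-9 were highest in LN-5. Ighv14-2, 95.7% identical to Ighv14-3, took 3.44% there and 0.567% to 1.19% elsewhere. Ighv2-9-1, 93.5% identical to Ighv2-9, took 5.86% there. By contrast, Ighv5-4 summed with Ighv5-9 stayed lowest in LN-5, at 0.514% against 2.27% to 8.24%. That pair summed to whole numbers in only 2 nodes, and Ighv5-6, 95.7% identical to Ighv5-4, was left out of it. Ighv5-4, Ighv5-6 and Ighv5-9 all had fractional counts in LN-1 and LN-2. The low values of Ighv5-4 and Ighv5-6 may therefore not be separate readings. Counts of Ighv14-3, Ighv2-9 and Ighv2-9-1 were whole in every node. Ighv14-2 was closer to Ighv14-1, at 97.4% identity, and both had fractional counts in LN-1, LN-4 and LN-5. Whether reads were exchanged between any of these relatives was not tested.

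In the other direction, Ighv6-4 had 17 counts in LN-5 and 0 in the other 5 nodes. Its share of 0.874% was at least 25.5-fold higher than the 0.0343% that 3 counts summed over those nodes would give. Elsewhere, Ighv1-37 was high in LN-3 (26.9 estimated counts against 0 to 6) and Ighv5-12 in LN-4. Among kappa segments, LN-5 was high for Igkv1-133 and low for Igkv5-45 and Igkv1-99 (1 count against 6 to 176), and LN-6 was high for Igkv1-99. Igkv12-89 was listed at 0 in LN-3 against 6 to 50 counts elsewhere, but the 3 counts that a 0 allows are not 5-fold below 6. The low calls of Ighv5-6, Ighv9-3 and Igkv1-99 in LN-5 are uncertain for the same reason. Each had 1 count there, and their lowest values elsewhere were 6.81, 9 and 6 counts. The Igkv5-45 value depends on how reads were divided: it had 14.1 estimated counts in LN-5, but its sum with Igkv5-43, 98.4% identical, was 124 there and 137 to 222 elsewhere. No segment met the rule in LN-1 or LN-2.

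LN-5 was the lowest or the highest of the 6 nodes for 28 of 41 heavy segments with a mean of at least 10 counts, and the other nodes for 8 to 14 each. In kappa it was so for 35 of 72 segments, and the other nodes for 17 to 30. These counts include the single segments named above that reach that mean. Shares within a locus are also tied, since a low share of some segments raises the shares of the rest. Over all genes at that level LN-5 was the lowest or highest in CPM for 34.0%, beside 28 of 41 heavy and 37 of 72 kappa segments in CPM. In the band of 10 to 100 counts it was so for 30.1% of genes, beside 28 of 40 heavy and 32 of 60 kappa segments. Ordered by distance from J, the 38 nearest heavy segments took 52.3%, 59.1%, 52.4%, 56.2%, 37.4% and 63.6% of heavy V counts. The 37 farthest took 34.8% in LN-5 and 21.2% to 27.0% in the other nodes. The 38 in the middle took 27.8% in LN-5 and 15.1% to 24.3% in the other nodes. LN-5 thus had the lowest share of the 6 nodes in the nearest group and the highest in both others. The heavy segments low in LN-5 all lie in the nearest group, so these shares in part restate those low values. The labels give no strain, the annotation is of the reference strain, and whether a difference in V genes between mice has a part in LN-5 was not tested.

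**Figure D4:**
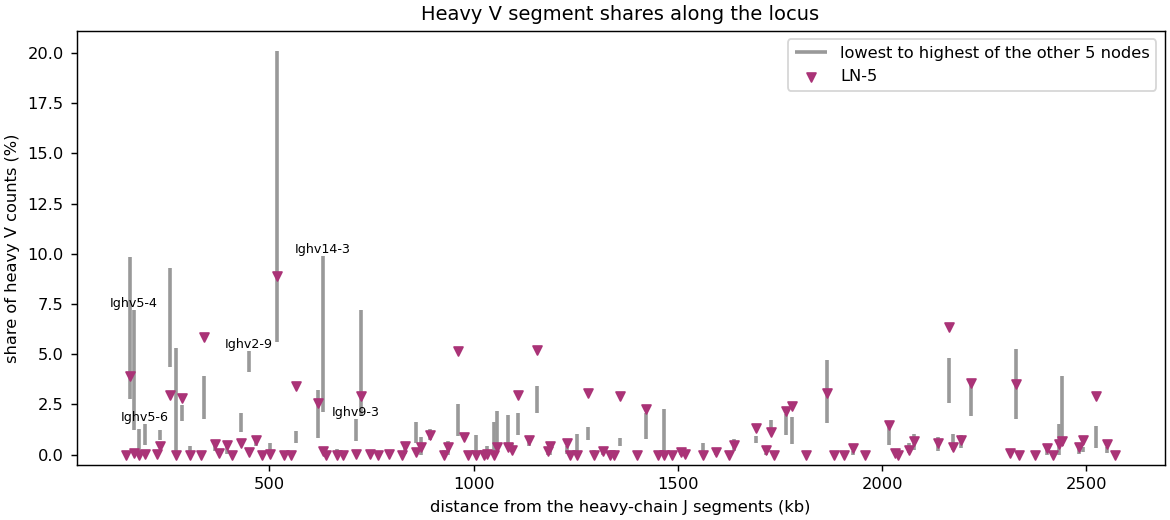
The share of heavy V counts (%) of each heavy segment is plotted against its distance from the J segments (kb), with LN-5 as triangles and the lowest to highest of the other 5 nodes as bars. The 5 labelled segments, 168 to 711 kb from J, lie near 0 in LN-5 and above it in every other node.

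Over the whole locus, share and distance were only weakly related. The Spearman correlation across segments was -0.14 for heavy median shares, 0.08 in LN-5 and between -0.21 and -0.10 in the other nodes. For kappa it was 0.00. The 34 kappa segments farthest from J took 44.8% to 52.8% of kappa V counts, so distal kappa segments were used in every node. The 38 kappa segments on the plus strand, which is also that of the kappa J segments and so allows joining by deletion, took 41.6% to 52.4%.

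The spread of V segments between nodes was set beside that of all genes. The variance over mean of segment counts, after allowing for each node's locus total, would be near 1 for counting alone. Its median was 7.54 over 41 heavy segments and 6.99 over 72 kappa segments with a mean of at least 10 counts, and it exceeded 5 for 27 and 44 of them. The highest was Igkv1-99 at 207. Spread above counting was common among genes in general: in library-scaled counts the ratio exceeded 5 for 52.4% of 14306 genes, beside 26 of 41 heavy and 47 of 72 kappa segments. In the band of 10 to 100 counts it did so for 31.5% of genes, beside 25 of 40 heavy and 37 of 60 kappa segments.

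Of 116 V segments with a mean of at least 10 counts, 70 differed at least 3-fold in CPM between the highest and lowest node, or 60.3%. Over all 14306 genes at that level the share was 9.50%. Low counts alone raise this share, and of genes with a mean of 10 to 100 counts 34.3% differed so, against 60 of 100 V segments. At 100 counts and over it was 2.42% of genes and 10 of 16 V segments. Without LN-5 the V count was 43 of 116, against 8.38% of genes. In the band of 10 to 100 counts it was then 36 of 100, against 30.2% of genes, which is close to the background. At 100 counts and over it was 7 of 16 without LN-5, against 2.15%. Leaving out any other single node gave 59 to 65 of 116.

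The CV of CPM beyond counting error had a median of 42.1% over the V segments and 10.4% over all genes at that level. Without LN-5 these were 33.1% and 10.1%. In the band of 10 to 100 counts the medians were 42.1% for V segments and 23.8% for all genes, and 31.6% and 23.2% without LN-5. The 8 B cell markers had a median of 12.01% and 10 immunoglobulin constant genes 27.5%, which without LN-5 were 10.6% and 18.0%. The 9 constant genes with 100 counts and over had a median of 16.7%. B cell markers thus varied by less between nodes than single V segments did, but at a far higher level. Their median mean count was 11419, against 44.8 for the V segments. At 100 counts and over, the median CV was 42.0% for 16 V segments and 9.19% for all genes.

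Relatedness limits how finely segments can be told apart. The nearest other V transcript was 95.4% identical for the median heavy segment and 94.4% for the median kappa segment, and 25 heavy and 18 kappa segments had a relative at 97% or more. Estimated counts were not whole in at least 1 node for 77 V rows. The authors' symbols equal the GENCODE name for 5 rows only, with 192 rows under 31 shared symbols. For example, Gm5629 stands on 19 rows, so segments were read by their identifiers.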

How the data were processed

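The tool that counted reads and its annotation were not given in the sources used here. Alignment used HISAT2 version 2.4 and build mm10, per the submitters' processing notes. The authors deposited 1 table with an estimated count and an FPKM column per library, per the file headers. The estimated counts were used as deposited, with fractions kept, and the 6 FPKM columns were not used. The 6 count columns name no sample, so all were placed in 1 group of popliteal nodes, and no test between EV sources was made. Mean counts, variances and CVs over the nodes describe their spread only, not the error of a treatment group. Pairs of nodes were compared by chi-square to look for duplicates, and single nodes by Dixon's ratio.

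Identifiers were matched to GENCODE M21 (GRCm38) without versions. A share is a segment's percent of its locus's V counts in a node, and a segment is detected at 10 counts. Intervals are 95% exact binomial ones, and a count of 0 is given a limit of 3 counts. Identity came from pairwise alignment of at least 200 bases. Spread beyond counting subtracts the expected counting variance. Computation used Python 3.11.15, pandas 2.3.3, numpy 2.4.6, scipy 1.17.1, Biopython 1.88 and matplotlib 3.10.9, and was tested on simulated data.

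Segments named are the 8 heavy and 8 kappa with the highest median share, all lambda, each node's leader, the 5 per locus with the widest range of shares, and those at least 3 times every other node with at least 100 counts. The members, lists and rules were chosen with earlier results of these data known.

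Alternatives were counts per kilobase, other detection minimums, entropy, Pearson correlation of log2 shares, in parts of the locus scaled as CPM, with a pseudocount of 1, removal of near-identical segments or of the leader, constant genes, and leaving out each node. Depth was 13039899 to 18093707 counts, with 1172 to 2569 heavy V counts per node, which limits rare heavy segments most.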

Additional observations from a re-analysis of the deposited data

Results flagged for a closer look

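Of 48 values screened over the 6 nodes, 12 had 1 node whose gap to the nearest other, over the whole range, exceeded Dixon's critical value. Chance flags about 1 in 20 such groups, and some of the values were picked for a wide range or a single high node, so they are listed as values only.

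The lambda share was 25.5% of V counts in LN-4 against 9.36% to 12.9% elsewhere, and 31.5% of light-chain V counts against 11.8% to 16.3%. Ighv5-12 was also far from the rest in LN-4, at 5.33% of heavy V counts against 0% to 0.675%.

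In LN-5, Ighv2-9 was at 0.154% of heavy V counts against 4.11% to 5.15%, and Igkv1-133 at 3.74% of kappa V counts against 0.153% to 0.288%. In LN-6, Ighv2-2 was at 9.82% against 2.76% to 5.22%, Igkv9-120 at 3.03% against 0.549% to 0.915%, and Igkv1-99 at 3.90% against 0.0136% to 0.173%.

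In LN-3, the Igkv3 family took 10.2% against 6.57% to 7.62%, and Igkv19-93 took 8.34% against 2.00% to 3.91%. In LN-1, Ighv5-4 took 7.22% against 0.103% to 2.65%, and Igkv16-104 took 3.26% against 1.90% to 2.30%. LN-2 held none of these values.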

How the results depend on the processing

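Of 168 recomputed summary values, 155 stayed within 1 SD between nodes (counts of segments within 1.5 times), and 13 went past that or, for 1 correlation near 0, changed sign. All 175 values of single named segments stayed within 1 SD, but 150 of them were medians with 1 node left out. With this number of nodes, leaving 1 out always moves a median over nodes by less than the SD. Those values could not fail, and only the 25 from counts per kilobase could have. The same limit holds for most of the 119 leave-one-out values among the 155, so for these the tally does not measure robustness. The lambda share of light chains had a median of 13.7% from V segments and 21.7% from constant genes. Heavy segments detected rose from a median of 39 to 76.5 with a minimum of 1 count. The effective number rose from 25.8 to 38.5 (heavy) and from 28.6 to 45.9 (kappa) with Shannon entropy. The median agreement of 0.88 in both loci became 0.78 and 0.80 with Pearson correlation of log2 shares, and 0.76 and 0.79 among detected segments. The variance over mean rose to 14.2 (heavy) and 10.7 (kappa) at a mean of 50 counts. Among detected segments the correlation with distance was -0.25 for heavy and 0.0057 for kappa segments.

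Segments at least 3-fold apart numbered 70, and 43 to 65 when a node was left out, 43 being without LN-5. Leaving out a node in turn moved median agreement between 0.85 and 0.89 (heavy) and 0.86 and 0.90 (kappa), and the leading shares between 9.65% and 10.9% (Ighv4-1) and 6.11% and 7.46% (Igkv1-135). Leaving out nodes for the 3-fold count, and LN-4 for lambda, was chosen after seeing the data. No paired analysis was possible because the count columns carry no sample or EV source, and no test between EV sources was made.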
